A study of Mus musculus with 6 samples.

Results

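The glucocorticoid receptor Nr3c1 and 7 genes known as its targets (Fkbp5, Tsc22d3, Zfp36, Sgk1, Rgs2, Errfi1 and Zbtb16) were followed in mouse leukaemia cells taken from fed and fasted animals. The members were chosen by gene name, and each of the 8 names was found in all 6 count tables, among 37732 genes that could be matched between the tables. The disease was an N-Myc-driven B-cell acute lymphoblastic leukaemia (B-ALL) in C57BL/6 mice. In every group, lineage-negative fetal liver cells carrying N-Myc and a GFP reporter had been transplanted to start the leukaemia, and bone marrow cells that carried both GFP and B220, a B-cell version of the surface protein CD45, were collected by sorting. The fasted mice went without food for 1 day or 2 days, starting when about 60% of cells in peripheral blood were GFP-positive, and the control mice were fed normally.

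Each of the 3 groups has 2 RNA-seq libraries, which the titles number as replicates 1 and 2 and which are named run 1 and run 2 below. The series text speaks of 3 samples sequenced in duplicate, and the number of mice behind a library is not stated. On reads that map to 1 place, the squared difference between the runs of a group, divided by what read sampling alone would give, had a median over genes of 1.11 to 1.39 within groups, against 5.89 to 23.7 between groups. On total gene reads, which give the levels and ratios below, it was 1.33 to 1.66 within groups, against 7.00 to 25.8 between groups. Control (1.59) and the 2-day group (1.66) were over the planned limit of 1.5 there. For most genes, then, both runs of a group agree within sampling noise on reads that map to 1 place, and they were counted together as 1 sample. Differences between groups thus rest on single samples without a check by replicates, and no p-value is given. A gene is said to have risen, fallen or changed where its mean and each run differed by at least 1.5-fold in the same direction. Where both runs of a group lie above or below those of another, the share of all genes that do so was not counted.

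Glucocorticoids are steroid hormones of the adrenal cortex whose blood level climbs when an animal is without food. Inside the cell the hormone binds Nr3c1, which is held ready by Hsp90 and its co-chaperones, and the loaded receptor moves to the nucleus, where it binds DNA and switches a set of genes on or off. In lymphoid cells the pathway is known for stopping growth and causing death, which is why synthetic glucocorticoids are a mainstay of treatment for lymphoblastic leukaemia.

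The promoters of 6 of the 8 members were found in RefSeq (build GRCm38.p6), with 14 start sites in all. Nr3c1 and Zbtb16 are not shown. The 250 bases before each start were searched on both strands for the letters of the receptor's binding element, GNACA and TGTNC with any 3 bases between them, which 0.387% of 32851 such windows in the genome hold. Among the member windows 1 held it, a start of Sgk1, where it begins 188 bases upstream. The GC box letters GGGCGG were in 8 of the 14 windows, which belong to 6 genes, and in 32.7% of all windows. The TATA box letters TATAAA were in 3 member windows and in 12.4% of all windows, and the cAMP response element TGACGTCA was in 1 member window, of Errfi1, and in 1.55% of all windows. The windows of Tsc22d3 (1 of its 3, minus strand, chrX:140542669-140542918) and Zfp36 (its only window, minus strand, chr7:28379229-28379478) are shown because these genes rose at both fasting times, and that of Sgk1 (1 of its 6, plus strand, chr10:21993640-21993889) because it holds the receptor's element. Each is written 5′ to 3′ on the gene's strand, and capitals mark the GC box on either strand in Tsc22d3 and Zfp36 and the receptor's element in Sgk1.
Tsc22d3: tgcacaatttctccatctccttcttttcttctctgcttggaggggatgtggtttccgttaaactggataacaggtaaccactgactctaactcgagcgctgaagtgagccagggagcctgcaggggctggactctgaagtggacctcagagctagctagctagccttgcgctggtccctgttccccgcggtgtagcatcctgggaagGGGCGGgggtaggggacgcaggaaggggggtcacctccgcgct
Zfp36: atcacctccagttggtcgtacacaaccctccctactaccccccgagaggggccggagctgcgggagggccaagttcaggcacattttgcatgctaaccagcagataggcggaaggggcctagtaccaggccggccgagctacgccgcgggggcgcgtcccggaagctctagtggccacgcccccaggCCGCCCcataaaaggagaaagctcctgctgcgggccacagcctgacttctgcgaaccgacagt
Sgk1: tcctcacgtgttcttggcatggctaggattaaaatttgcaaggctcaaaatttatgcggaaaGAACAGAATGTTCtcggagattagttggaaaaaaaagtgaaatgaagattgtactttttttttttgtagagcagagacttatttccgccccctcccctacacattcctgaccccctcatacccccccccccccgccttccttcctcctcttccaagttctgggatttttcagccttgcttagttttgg

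Levels are given in CPM, the counts of a gene scaled to a common library size, here with TMM factors, which even out differences in library make-up. Total gene reads per library were between 19368326 and 45862844. Ratios of read levels carry 95% intervals from an exact binomial calculation, which cover counting error only and say nothing of differences between mice. Genes with too few reads were set aside, which left 14236 genes and 7 of the 8 members. The 2-day group stood apart from the other groups, with 98 genes at least 8-fold lower than in both of them in each run, against 0 such genes in control and 0 in the 1-day group. The B-cell receptor component Cd79a averaged 799, 890 and 803 CPM in the control, 1-day and 2-day groups, and the B-lineage factor Pax5 averaged 124, 109 and 108 CPM in the same order, with neither past the mark. Of other B-lineage genes, Cd22 rose at 2 days to 265 CPM, against 165 CPM in control, and Blnk fell to 187 CPM, against 286 CPM in control. In RNA from a sorted population, a lower share of cells that express a gene and less RNA per cell cannot be told apart.

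Nr3c1 is the receptor itself, on chromosome 18 (mm10, chr18:39410545-39491301, minus strand). Its level was 81.1 and 81.9 CPM in the control runs, 71.6 and 74.1 CPM in the 1-day runs, and 62.3 and 59.1 CPM in the 2-day runs. The order was control, 1 day, 2 days from high to low. The ratio was 0.896 (0.863 to 0.931) for 1-day fasted over control and 0.750 (0.718 to 0.783) for 2-day fasted over control, so neither was past 1.5-fold. Among all genes tested, 77.3% had a higher log2 fold than Nr3c1 at 1 day and 82.7% at 2 days.

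Fkbp5 (chr17:28399095-28517524, minus strand) encodes FKBP51, an Hsp90 co-chaperone that the receptor induces and that in turn lowers the receptor's affinity for hormone. It stood at 99.3 and 97.6 CPM in control, 93.4 and 91.3 CPM at 1 day, and 141.2 and 141.0 CPM at 2 days. Both 2-day runs were above the other 4 libraries, and the 1-day runs were just below control. The ratio to control was 0.939 (0.907 to 0.972) at 1 day and 1.44 (1.39 to 1.49) at 2 days, where it was short of the 1.5-fold mark. Between the fasted groups the ratio was 1.53 (1.48 to 1.58) for 2 days over 1 day, and there Fkbp5 rose. The annotation has 4 other genes that overlap Fkbp5, of which AC154912.1 and Gm22146 are antisense to it and AC154912.5 and AC154912.3 lie on its strand. Whether counting used strand is not given in the sources used here, so their reads could be among those counted.

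Tsc22d3 (chrX:140539528-140600659, minus strand) encodes GILZ, the glucocorticoid-induced leucine zipper, which binds and restrains inflammatory transcription factors. It stood at 92.9 and 95.9 CPM in control, 195.5 and 196.9 CPM at 1 day, and 209.8 and 203.5 CPM at 2 days. All 4 fasted libraries were above both control libraries by a wide margin, and the 2-day runs were slightly above the 1-day runs. It rose at 1 day, with a ratio to control of 2.07 (2.01 to 2.13), and at 2 days, with a ratio of 2.19 (2.12 to 2.26). The ratio of 2 days over 1 day was 1.06 (1.03 to 1.08). Of all genes tested, 1.96% had a higher log2 fold at 1 day and 4.60% at 2 days.

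Zfp36 (chr7:28376784-28379255, minus strand) encodes tristetraprolin, which binds AU-rich stretches of messenger RNAs and hastens their decay, and it is also known as an early response gene. It stood at 78.6 and 79.9 CPM in control, 150.5 and 153.6 CPM at 1 day, and 144.7 and 140.9 CPM at 2 days. The fasted libraries were all above control, and both 2-day runs were below both 1-day runs. Its level rose at 1 day, with a ratio of 1.92 (1.86 to 1.98) over control, and at 2 days, with a ratio of 1.81 (1.74 to 1.87). The ratio of 2 days over 1 day was 0.941 (0.914 to 0.969). An annotated antisense gene, Gm44710, overlaps Zfp36, so reads of that gene could be among those counted.

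Sgk1 (chr10:21882184-21999903, plus strand) encodes a serum- and glucocorticoid-regulated kinase that phosphorylates FoxO factors and regulators of ion transport. It stood at 38.1 and 38.8 CPM in control, 35.4 and 35.6 CPM at 1 day, and 47.6 and 46.4 CPM at 2 days. The 1-day runs were the lowest and the 2-day runs the highest. The ratio to control was 0.921 (0.871 to 0.973) at 1 day and 1.22 (1.16 to 1.29) at 2 days, and neither was past 1.5-fold.

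Rgs2 (chr1:143999338-144004161, minus strand) encodes a regulator that speeds the turning off of G proteins. It stood at 39.5 and 39.9 CPM in control, 53.3 and 51.1 CPM at 1 day, and 28.4 and 26.6 CPM at 2 days. Rgs2 was the member whose 1-day libraries were above control while its 2-day libraries were below it. The ratio to control was 1.31 (1.24 to 1.37) at 1 day and 0.699 (0.656 to 0.744) at 2 days, neither past 1.5-fold. Between the fasted groups it was lower at 2 days, with a ratio of 0.535 (0.504 to 0.568) over 1 day, and this difference passed 1.5-fold.

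Errfi1 (chr4:150853919-150868892, plus strand) encodes a feedback inhibitor of EGF receptor kinases. It was low, with 52 and 64 reads in the control libraries, 48 and 60 in the 1-day libraries, and 23 and 16 in the 2-day libraries. These correspond to 2.24 and 1.54 CPM in control, 1.69 and 1.36 CPM at 1 day, and 0.621 and 0.833 CPM at 2 days. The control and 1-day runs overlapped, and both 2-day runs were below the other 4 libraries. Errfi1 fell at 2 days, with a ratio of 0.387 (0.262 to 0.561) over control, and was not past 1.5-fold at 1 day, at 0.831 (0.633 to 1.09). The 2-day fall was not past 1.5-fold in each run when 1 CPM was added before taking logs in place of 0.1 CPM. It overlaps the annotated antisense gene 1700045H11Rik.

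Zbtb16 (chr9:48654311-48835945, minus strand) encodes the zinc finger repressor PLZF, known from innate-like T cells and as a strongly glucocorticoid-induced gene in several other tissues. It had 3 and 4 reads in the control libraries, 1 and 4 in the 1-day libraries, and 5 and 10 in the 2-day libraries, and was the member set aside for low counts. The ratio to control was 0.637 (0.159 to 2.33) at 1 day and 2.47 (0.947 to 7.15) at 2 days, and the 2-day runs themselves differed, at 0.135 and 0.521 CPM. On total gene reads both intervals include 1. On exon reads alone the 2-day ratio to control was 3.45 (1.05 to 14.7), from 12 reads against 4, too few to build on.

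**Figure D1:**
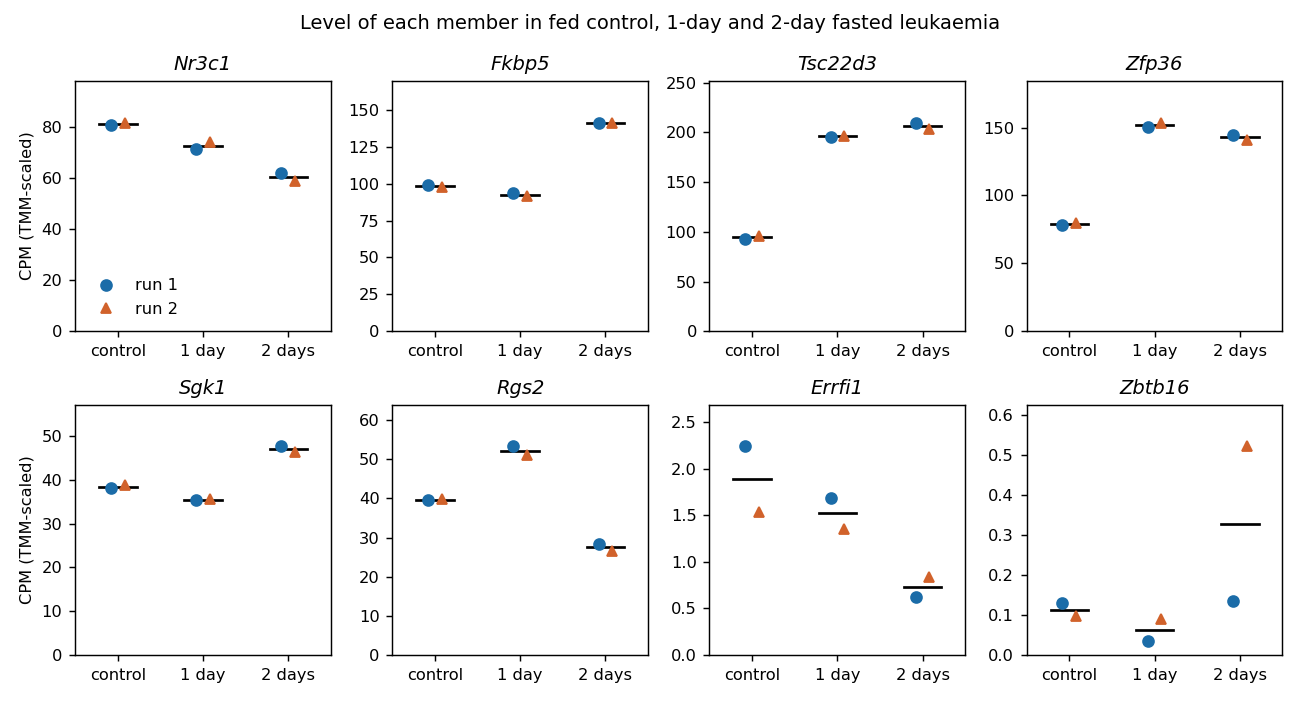
Level of each member in CPM (linear axes that start at 0) in the control, 1-day and 2-day groups, with a circle for run 1, a triangle for run 2 and a bar at the mean of both. Tsc22d3 and Zfp36 are higher in all 4 fasted libraries, Fkbp5 is highest at 2 days, Nr3c1 is highest in control, and Errfi1 and Zbtb16 are near the floor.

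After 1 day of fasting 2 of the 7 members tested, Tsc22d3 and Zfp36, had risen over control and 0 had fallen. The same rule called 7.09% of all 14236 genes in this comparison, with 4.34% higher and 2.75% lower. The median log2 fold of the 7 members was -0.09, beside 0.01 over all genes tested. The remaining 5 members lay between log2 folds of -0.29 (Errfi1) and 0.39 (Rgs2).

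After 2 days the same 2 members had risen over control and 1, Errfi1, had fallen. Here the rule called 19.5% of all genes, with 9.27% higher and 10.2% lower. The median log2 fold of the members was 0.29, beside 0.00 over all genes. The members not past the mark were Fkbp5 at 0.52, Sgk1 at 0.29, Nr3c1 at -0.42 and Rgs2 at -0.53. Both comparisons share the control sample, so their values are not independent of each other.

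Between the fasted groups, 1 member (Fkbp5) was higher and 2 members (Rgs2 and Errfi1) were lower at 2 days than at 1 day, where the rule called 14.1% of all genes, with 5.35% higher and 8.75% lower. The median of the members was -0.09, beside -0.01 over all genes. The ratio for Errfi1 was 0.466 (0.315 to 0.678), and that call was lost under several other settings. Sgk1 stood at a ratio of 1.33 (1.26 to 1.40) and Nr3c1 at 0.837 (0.801 to 0.874), both short of 1.5-fold.

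**Figure D2:**
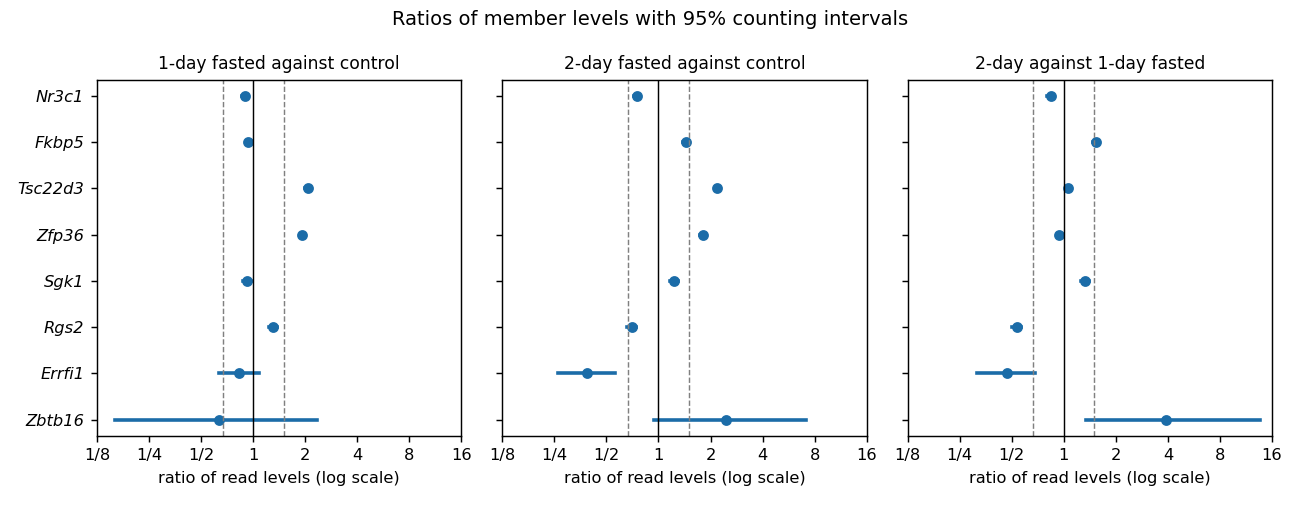
Ratio of the read level of each member between groups, on a log axis, with its 95% counting interval and dashed lines at 1.5-fold in either direction. Tsc22d3 and Zfp36 lie right of the line in both comparisons with control (2.07 and 1.92 at 1 day), and Errfi1 lies left of it at 2 days (0.387), while Zbtb16 has intervals that span several-fold.

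The authors' tables split the reads of a gene into exon, exon-junction and intron reads, and the classes did not move alike for every member. Intron reads come mostly from transcripts that have not yet been spliced, and in these libraries they were few. For Tsc22d3 the intron level was 1.94 and 1.54 CPM in control, 2.32 and 1.97 CPM at 1 day, and 1.48 and 1.197 CPM at 2 days. Relative to control, its exon reads stood at a ratio of 2.09 (2.02 to 2.15) after 1 day and 2.21 (2.15 to 2.28) after 2 days, and its junction reads at 2.18 (1.92 to 2.48) and 2.42 (2.13 to 2.76). The intron reads stood at 1.25 (0.973 to 1.62) and 0.824 (0.608 to 1.11) on the same measure, from 153 reads in 1-day fasted and 78 in 2-day fasted cells against 109 in control.

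Zfp36 had another pattern. Its intron level was 2.59 and 2.98 CPM in control, 5.38 and 5.82 CPM at 1 day, and 7.53 and 8.07 CPM at 2 days. The ratios of intron reads to control were 1.99 (1.67 to 2.38) at 1 day and 2.72 (2.28 to 3.24) at 2 days, beside exon ratios of 1.92 (1.85 to 1.98) and 1.77 (1.71 to 1.84). Between the fasted groups, the intron reads were higher at 2 days by a ratio of 1.37 (1.19 to 1.57), while the exon reads had a ratio of 0.925 (0.898 to 0.952). Intron reads that belong to the antisense gene Gm44710 could not be told apart from those of Zfp36.

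For Sgk1 the intron reads were below control and the exon and junction reads above it at 2 days. Its intron level was 4.31 and 3.46 CPM in control, 3.24 and 2.38 CPM at 1 day, and 1.78 and 1.56 CPM at 2 days. The intron ratio was 0.720 (0.594 to 0.873) for 1-day fasted and 0.453 (0.354 to 0.576) for 2-day fasted cells over control. Its junction reads, which span 2 joined exons, had a ratio of 1.05 (0.930 to 1.19) after 1 day and of 1.43 (1.27 to 1.62) after 2 days. The exon ratio was 0.943 (0.890 to 0.999) for 1-day fasted cells, below control as the intron ratio was, and 1.31 (1.24 to 1.38) for 2-day fasted cells. The exonic share of its reads was 88.7% and 91.1% in the control runs, 90.9% and 93.3% in the 1-day runs, and 96.3% and 96.6% in the 2-day runs.

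Fkbp5 was higher at 2 days than in control in both classes, with an intron ratio of 1.32 (1.15 to 1.51) and an exon ratio of 1.45 (1.397 to 1.496). Nr3c1 was lower at 2 days in both, with an intron ratio of 0.514 (0.361 to 0.723) from 50 reads in 2-day fasted cells against 112 in control, and an exon ratio of 0.755 (0.723 to 0.789). The intron ratios of Rgs2 were 1.13 (0.886 to 1.44) at 1 day and 0.847 (0.640 to 1.12) at 2 days, with intervals that include 1. Errfi1 and Zbtb16 had fewer than 10 intron reads in each group, too few to compare.

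**Figure D3:**
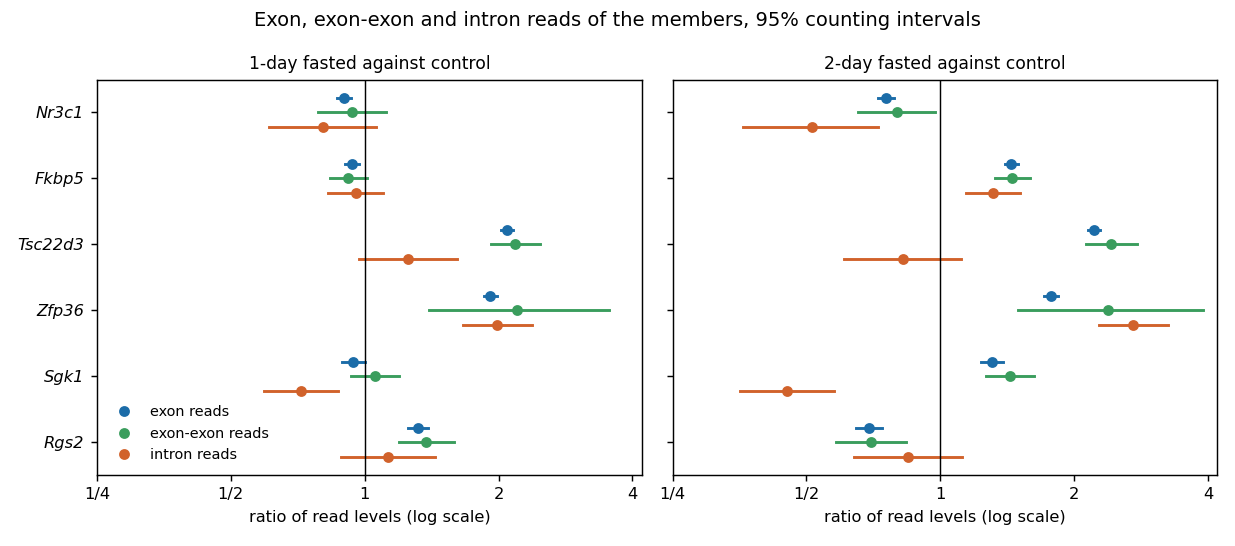
Ratios to control of exon, exon-exon junction and intron reads for the 6 members with enough reads, on a log axis, with 95% counting intervals. Exon and junction points of Tsc22d3 lie near 2 at both times while its intron points lie near 1, the intron points of Sgk1 lie left of its exon points, and all 3 classes of Zfp36 lie to the right.

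Per unit of length, in the authors' RPKM (reads scaled to exon length and to library size), the 8 members kept much the same order in the 3 groups. Zfp36 was highest, with mean levels of 41.2 RPKM in control, 79.6 at 1 day and 76.05 at 2 days. Tsc22d3 was next in each group, at 20.2, 42.4 and 45.4 RPKM, with Fkbp5 after it, at 14.4, 13.6 and 21.2 RPKM. In control, Nr3c1 at 10.2435 and 10.1903 RPKM in its runs and Rgs2 at 10.2230 and 10.1609 RPKM overlapped, so their order there is not set. At 1 day Rgs2 (13.8 and 13.2 RPKM) was above Nr3c1 (9.05 and 9.36 RPKM), and at 2 days it was below (7.41 and 7.05 RPKM for Rgs2, 7.93 and 7.67 RPKM for Nr3c1). Sgk1 ranked 6 in control and at 1 day (7.30 and 6.79 RPKM) and 4 at 2 days (9.15 RPKM). Errfi1 ranked 7 and Zbtb16 ranked 8 in every group, at most 0.587 and 0.0983 RPKM in any library.

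The genes whose pattern over the 6 libraries was nearest to that of each member except Zbtb16, which was below 1 CPM in every group, were found among 9637 genes with a mean of at least 5 CPM, by the root mean square distance of log2 levels centred on each gene's mean. For Zfp36 the nearest was Per1, a clock gene that is also a known receptor target, at a distance of 0.02, with 76.4 CPM at 1 day and 72.0 CPM at 2 days against 40.9 CPM in control. The next was Slc1a4, an amino acid transporter. For Tsc22d3 they were Arrdc3, an arrestin-domain protein, and Vim, the intermediate filament protein vimentin, at 0.04 and 0.05. For Fkbp5 they were Mpped1 and the carbonic anhydrase Car12, at 0.01 and 0.03. Nr3c1 was nearest to Rrm2, a ribonucleotide reductase subunit, and Ipo5, a nuclear import receptor. The nearest to Sgk1 were Cplx2 and Mplkip, to Rgs2 Plekhn1 and Evl, and to Errfi1 Dock10 and Myo10 at 0.18 each. With 3 groups, many genes are close by this measure, and the distances are a description.

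Transcripts of the proteins that hold and assist the receptor were followed as a list. Of 23 listed chaperones and cofactors, 22 were tested, and at 1 day 0 rose and 0 fell, where 7.09% of all genes were called, with a median log2 fold of -0.13. At 2 days 0 rose and 2 fell, where 9.27% of all genes rose and 10.2% fell, with a median of -0.16. Those that fell were Smarca4, the ATPase of the SWI/SNF chromatin remodeller, at 409 CPM in 2-day fasted cells against 939 CPM in control, and Crebbp, a histone acetyltransferase, at 52.3 CPM against 84.5 CPM. The chaperones themselves were not past 1.5-fold. Hsp90ab1 stood at 5102 CPM at 1 day and 4420 CPM at 2 days, against 5238 CPM in control, and Hsp90aa1 at 1477 and 1463 CPM against 1627 CPM. The co-chaperone Ptges3 (p23) stood at 293 and 299 CPM against 312 CPM. Fkbp4, which encodes FKBP52, the counterpart of FKBP51 in the receptor complex, stood at 541 and 524 CPM against 625 CPM, not past 1.5-fold.

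Among 10 genes of steroid supply and related receptors, 6 were tested. At 1 day 0 rose and 1 fell, where 4.34% of all genes rose and 2.75% fell. At 2 days 1 rose and 2 fell, where 9.27% of all genes rose and 10.2% fell. H6pd, the enzyme of the endoplasmic reticulum that supplies NADPH for making active glucocorticoid, rose at 2 days to 83.6 CPM, against 36.0 CPM in control, a ratio of 2.33 (2.21 to 2.44). Hsd11b1, of the same list, was low and not past 1.5-fold, at 0.846 CPM at 1 day and 0.784 CPM at 2 days against 0.843 CPM in control. Its 2-day ratio was 0.963 (0.636 to 1.45). Whether active glucocorticoid differed in these cells was not tested. Abcb1b, a drug and steroid efflux pump, fell at 2 days to 6.61 CPM, against 14.6 CPM in control. Nr3c2, the mineralocorticoid receptor, fell at both times and was low throughout, with 0.119 CPM at 1 day and 0.0521 CPM at 2 days against 0.386 CPM in control, a ratio of 0.0921 (0.0106 to 0.369) at 2 days that rests on very few reads.

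Of 42 other genes known to be induced by glucocorticoids, 39 were tested. Like the other lists, this one was chosen with earlier results of these data known, so its counts are a description. At 1 day 10 rose and 0 fell, with a median log2 fold of 0.21, where 4.34% of all genes rose. At 2 days 11 rose and 4 fell, with a median of 0.23, where 9.27% of all genes rose and 10.2% fell. Bmf, a pro-apoptotic BH3-only protein, stood at 13.1 CPM at 1 day and 21.3 CPM at 2 days, against 3.50 CPM in control, with ratios of 3.61 (3.13 to 4.19) and 5.82 (5.06 to 6.72). Cdkn1c, an inhibitor of cyclin-dependent kinases, rose at both times, to 8.11 and 7.16 CPM against 2.67 CPM in control, and so did Per1, with ratios of 1.86 (1.78 to 1.95) and 1.76 (1.67 to 1.84). Sik1, a salt-inducible kinase, rose at 1 day to 151 CPM, against 65.6 CPM in control, and at 2 days stood at 96.6 CPM, short of the mark.

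Other genes of that list differed between the times. Ddit4, an inhibitor of mTORC1, rose at 1 day to 47.4 CPM, against 27.6 CPM in control, and at 2 days stood at 42.2 CPM, where run 2 was not past 1.5-fold. Cebpb, a transcription factor, stood at 9.29 CPM at 1 day, short of the mark in run 1, and rose at 2 days to 16.8 CPM, against 6.11 CPM in control. Crispld2, a secreted protein, was low and rose at both times, to 0.574 and 1.06 CPM against 0.298 CPM in control. The 4 that fell at 2 days were Tsc22d1, Tnfaip3, Il7r and Mt1, with log2 folds of -1.23, -1.17, -0.97 and -0.94. Some of the most used readouts of receptor activity were not past 1.5-fold at either time. Dusp1, a MAP kinase phosphatase, had 22.8 CPM at 1 day and 13.8 CPM at 2 days, against 15.96 CPM in control. Klf9, a zinc finger factor, had 25.5 and 27.6 CPM against 22.7 CPM. Bcl2l11, which encodes the death protein BIM, had 79.8 and 66.1 CPM against 69.2 CPM.

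Inflammatory genes that the receptor is known to repress were mostly near the floor, and 7 of 16 were tested. At 1 day 2 rose and 0 fell, and at 2 days 3 rose and 0 fell. Of all genes tested, 4.34% rose and 2.75% fell at 1 day, and 9.27% rose and 10.2% fell at 2 days. Ccl5 stood at 1.24 CPM at 1 day and 0.797 CPM at 2 days, against 0.161 CPM in control. Ccl3 stood at 0.508 and 0.545 CPM against 0.137 CPM, and Il1b rose at 2 days to 1.75 CPM, against 0.996 CPM in control. The listed chemokines and Il1b are also made by other blood cells.

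The closest relatives of the members moved in their own ways. Of 25 listed, 19 were tested, with 2 higher and 1 lower at 1 day and 4 higher and 3 lower at 2 days. The same rule called 4.34% of all genes higher and 2.75% lower at 1 day, and 9.27% and 10.2% at 2 days. Zbtb32, a BTB zinc finger repressor like Zbtb16, stood at 19.9 CPM at 1 day and 28.5 CPM at 2 days, against 3.77 CPM in control, with ratios of 5.23 (4.57 to 6.01) and 7.40 (6.47 to 8.49). Sgk3 rose at 2 days to 37.4 CPM, against 15.2 CPM in control, where Sgk1 had a ratio of 1.22, and Sgk2 had no reads in any library. Zfp36l1, an AU-rich element binding protein like Zfp36, rose at 2 days to 115 CPM, against 71.0 CPM in control. Tsc22d1, of the same family as Tsc22d3, fell at 2 days to 2.21 CPM, against 5.34 CPM in control. Rgs16 fell at 2 days to 0.839 CPM, against 4.26 CPM in control, and Rgs18 rose to 1.06 CPM, against 0.626 CPM.

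**Figure D4:**
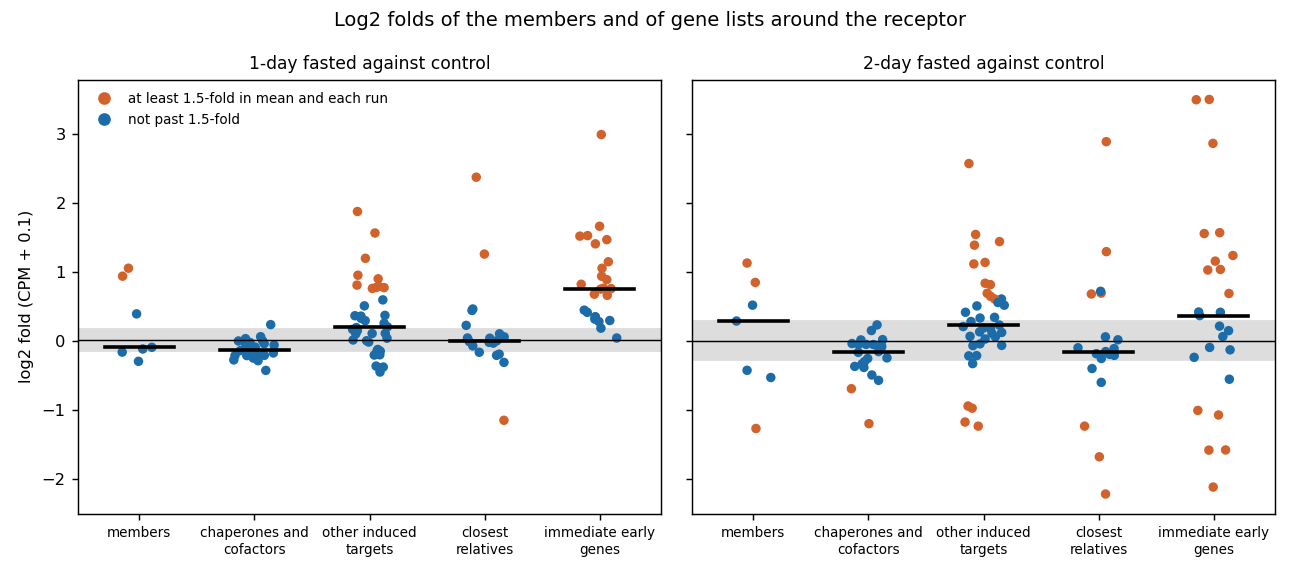
Log2 folds (log2 of CPM + 0.1) of the tested genes of each list against control at 1 day and at 2 days, with a bar at the median of each list and a grey band for the middle 50% of all genes. Orange points are at least 1.5-fold apart in the mean and in each run. Of 39 other induced targets they include 10 higher and 0 lower at 1 day, and 11 higher and 4 lower at 2 days. Of all genes tested, 4.34% were higher and 2.75% lower at 1 day, and 9.27% and 10.2% at 2 days.

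Immediate early genes moved in the same libraries. These genes respond within minutes to many stimuli, handling of tissue among them. As drawn here, their list shares Btg2 with the induced targets, and the other induced targets were not sorted by whether they also respond early. Of 26 listed, 25 were tested, of which 16 rose and 0 fell at 1 day (median log2 fold 0.76), and 10 rose and 5 fell at 2 days (median 0.37). Among all genes, 4.34% rose and 2.75% fell at 1 day, and 9.27% rose and 10.2% fell at 2 days. Their summed level was 1226 to 1268 CPM in control, 2018 to 2037 CPM at 1 day and 1754 CPM in both runs at 2 days, and none was without reads in any group. Atf3 stood at 20.3 CPM at 1 day and 5.97 CPM at 2 days, against 2.47 CPM in control. Nr4a1 stood at 43.0 and 153 CPM, against 13.5 CPM, Ier2 at 36.5 and 246 CPM, against 21.6 CPM, and Fosl2 at 14.9 and 61.7 CPM, against 8.40 CPM. At 2 days Rhob fell to 12.6 CPM, against 54.9 CPM in control, and Dusp6 to 3.56 CPM, against 10.8 CPM. The part of these genes' response in the values of Zfp36, Tsc22d3, Rgs2 and the induced targets was not tested.

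Transcripts used as markers of other blood cells were present in the sorted cells and differed between groups. The counts below stand beside 4.34% of all genes higher and 2.75% lower at 1 day, and 9.27% higher and 10.2% lower at 2 days. The neutrophil list shares Lcn2 with the induced targets. The 17 neutrophil markers summed to 1055 to 1090 CPM in control, 702 to 735 CPM at 1 day and 959 to 970 CPM at 2 days, with 0 higher and 5 lower at 1 day and 2 higher and 1 lower at 2 days (4 higher and 0 lower with library totals in place of TMM). Of 13 tested monocyte and dendritic markers, 1 rose at 1 day, and 4 rose and 1 fell at 2 days. Their sum over 14 genes was 161 to 165 CPM in control, 158 CPM at 1 day and 235 to 239 CPM at 2 days. Of 13 erythroid markers, 0 passed the mark at 1 day and 5 rose at 2 days. The 13 summed to 1075 to 1098 CPM, 1200 to 1205 CPM and 1691 to 1716 CPM in control, at 1 day and at 2 days. Of these sums, Tfrc alone, which was not past 1.5-fold, gave 634, 625 and 703 CPM in the same order. The 5 that rose were Hba-a1, Hba-a2, Hbb-bs, Hbb-bt and Alas2, with 2-day log2 folds of 0.96, 1.11, 1.40, 1.27 and 1.51. The T, NK and innate lymphoid markers, among whose cell types Zbtb16 is best known, summed to 19.39 to 20.01 CPM in control, 26.2 to 27.0 CPM at 1 day and 35.1 to 36.2 CPM at 2 days. Of 17 tested, 7 rose and 1 fell at 1 day, and 2 rose and 8 fell at 2 days, when Cd6 alone had 26.8 CPM, against 0.677 CPM in control. None of the neutrophil, monocyte and dendritic or erythroid markers was without reads in any group, 2 of 21 T, NK and innate lymphoid markers had no reads in control and 1 had none at 2 days. Megakaryocyte and platelet markers (7 genes) summed to at most 2.69 CPM, and stromal and endothelial markers (11 genes) to 55.0 to 55.5 CPM in control, 54.4 to 56.8 CPM at 1 day and 42.6 to 45.0 CPM at 2 days, with 0 past the mark among the 1 and 4 tested. Most of the stromal and endothelial sum came from Pecam1, whose means were 51.6, 51.9 and 40.4 CPM (control, 1-day and 2-day groups). The lower 2-day sum of that list is thus mainly the level of Pecam1, which was not past 1.5-fold. The part of the cell types listed here in the levels of the members, which many blood cells express, was not tested.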

How the data were processed

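Gene expression was measured by RNA-seq (51-base single-end reads) of sorted leukaemia cells in 3 groups of 2 libraries. Per the submitters' processing notes, TopHat2 and the mouse build mm10 were used. How genes were counted, with which annotation and whether by strand, is not given in the sources used here. The deposited tables hold read counts per gene, in total, unique, exon, exon-junction and intron classes, and RPKM values that the authors computed from total gene reads and exon length. The RPKM values served for levels between genes and as an alternative.

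The 2 runs list 38355 and 38924 genes and were joined by position (37429 genes) or by name and chromosome (303), which kept 95.4% to 99.96% of gene reads. Library depth, as total gene reads of run 1 and then run 2, was 23412288 and 43785874 (control), 28805008 and 45862844 (1 day), and 36627712 and 19368326 (2 days). Total gene counts were scaled with TMM (edgeR 4.0.16, R 4.3.3), and low genes were removed by filterByExpr at a minimum count of 10. Log2 folds are those of mean CPM plus 0.1, a scale that understates changes of low genes. Because the runs of a group agree within sampling noise for most genes on unique reads, the planned edgeR test was not made. The median ratio there was 1.11 to 1.39 within groups, under the planned limit of 1.5. On total reads the median ratio was 1.33 to 1.66 within groups and 7.00 to 25.8 between. Control (1.59) and the 2-day group (1.66) were over the limit on that class. Ratios use reads summed over runs, with exact binomial intervals (scipy 1.17.1). The calculation was tested on simulated data.

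The text names all 8 members. From each list it names up to 6 genes past 1.5-fold with at least 1 CPM in a group, by size of the log2 fold, with 4 chaperones and 6 targets named whatever their values, and the 2 nearest genes for each member at 1 CPM or more in a group, with provisional gene models and immunoglobulin segments skipped. Cd79a, Pax5, Nr3c2, Hsd11b1, Sgk2, Ccl3, Tnfaip3, Il7r, Mt1, Tfrc and Pecam1 lie outside this rule and were chosen after their values were seen. Genes shared between lists are named as well. For lists of cell markers it gives counts and sums, and names few genes. The members, lists and rules were chosen with earlier results of these data known. The alternatives were DESeq2 (1.42.0) size factors, library totals, 1 CPM added, no filter, exon reads, unique reads, RPKM, a 2-fold threshold and leaving out each library. Member positions come from the files, overlapping genes from GENCODE M21 and promoters from RefSeq.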

Additional observations from a re-analysis of the deposited data

How the results depend on the processing

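Tsc22d3 and Zfp36 were called higher than control at both times under every alternative but the 2-fold threshold, at which Zfp36 is not called (log2 fold 0.94 at 1 day, 0.85 at 2 days). With that threshold the members called were 1 at 1 day, 1 at 2 days and 0 between the fasted groups, and over all genes 323, 1447 and 957 were called, by construction of the threshold. With 1 CPM added, 471 genes were called at 1 day and 1202 between the fasted groups, which follows from shrinking the folds of low genes. Leaving out 1 library gave 1445 to 1734 genes at 1 day, 3373 to 3555 at 2 days and 2565 to 2825 between the fasted groups, against 1009, 2769 and 2007 with all libraries, since only 1 run then has to pass. The 2 highest counts at 1 day came without control run 2 (1734) and without 1-day run 2 (1614). The members called stayed at 2 to 2, 3 to 3 and 3 to 3. The Errfi1 call is the least firm. At 2 days against control it was lost with 1 CPM added (-0.74), and between the fasted groups with library totals (-0.92), 1 CPM added (-0.55), exon reads (-0.995) and RPKM (-0.76), and the cause was not tested. Of the results for single members under alternatives, 269 were unchanged in call or within the counting interval, 11 lost a call, 1 gained one, 7 moved without a call, and 0 turned round. Zbtb16 passed 1.5-fold between the fasted groups when low counts were not filtered (log2 fold 1.39), on 15 reads at 2 days against 5 at 1 day. For the gene lists, other scalings were added after seeing the data. Counting both directions together, they moved the number called by over 1.5 times in 1 of 78 cases, where Blnk was not called at 2 days with library totals. By direction, library totals gave 4 higher and 0 lower neutrophil markers at 2 days against control, in place of 2 and 1.

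No paired analysis was possible because each group counts as 1 sample and the results come from no test, so no fit with a replicate block was run. Depth limits Errfi1 and Zbtb16, with 39 and 15 reads at 2 days. With 1 sample a group, differences between mice, cages or sort days cannot be told apart from those of fasting, and the 2-day group stands apart in 98 genes.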
